A study of Mus musculus with 3 samples.

Results

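Among the autosomal genes expressed in NOD blastocysts, 25 differed at least 8-fold between the 2 NOD libraries. They were selected on that difference, and the difference is therefore given as a description, without a test. A gene was eligible when it lay on chr1 to chr19 and reached 10 CPM (counts scaled to a library total of 1e+06) in at least 1 NOD library, and it was selected when the ratio of CPM + 0.5 between NOD 1 and NOD 2 was 8 or more, or 1/8 or less. Of the 24063 genes counted, 22950 lay on these chromosomes, 8154 were eligible and 25 were selected (0.307%). In 11 of them the level was higher in NOD 1 (0.135%) and in 14 it was higher in NOD 2 (0.172%). They were mostly single members of many families: meiosis and germ-line genes such as Syce1 and Fkbp6, membrane transporters and receptors such as Slc4a10, Slc38a2 and P2rx7, and a few regulators such as Id3 and Pmaip1. In B6, 5 of the 25 stood above both NOD libraries, 10 stood between them (Slc4a10 included, where B6 and NOD 2 tied at 0 counts) and 10 stood below both.

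The libraries came from untreated embryos of C57BL/6 (B6; 1 library) and of NOD mice (2 libraries, NOD 1 and NOD 2), the latter an inbred strain that develops autoimmune diabetes. The labels name whole blastocysts as the input, while the study's methods describe single inner cell masses (ICMs) freed by immunosurgery, and neither gives the litter, the age in days or the sex. cDNA was made with the SMART-Seq V4 kit, amplified with 19 cycles of PCR and sequenced as single-end reads of 50 bases. Counts on genes summed to 12505685 in B6 against 33891715 in NOD 1 and 36171013 in NOD 2, so that 1 count was worth 0.0800, 0.0295 and 0.0276 CPM, and a count of 0 allowed a level of up to 0.240, 0.0885 and 0.0829 CPM (3 counts).

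The blastocyst holds an outer trophectoderm and an inner cell mass, which divides into the naive epiblast and the primitive endoderm. Its transcriptome also holds genes best known from the germ line, because the pluripotent cells and the germ line share part of their program, and remnants of maternal transcripts. A library from very few cells starts from few RNA molecules, which PCR then copies. Since the reads carry no molecular identifiers, the intervals below, exact 95% Clopper-Pearson intervals of a ratio of counts, and the limits for a count of 0 cover counting error only. In such bulk samples fewer cells that express a gene and less RNA per cell cannot be told apart.

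Over the eligible genes as a whole, with the 25 included, the NOD libraries were close. The median log2 ratio of NOD 2 to NOD 1 over the 8154 eligible genes was -0.07, the SD was 0.61, and 7485 genes (91.8%) lay within 2-fold. At 4-fold or more stood 75 genes, 44 of them higher in NOD 1 and 31 higher in NOD 2. The plot of NOD 2 against NOD 1 shows the selected genes at the edge of this cloud, where the lower library came close to 0.

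**Figure D1:**
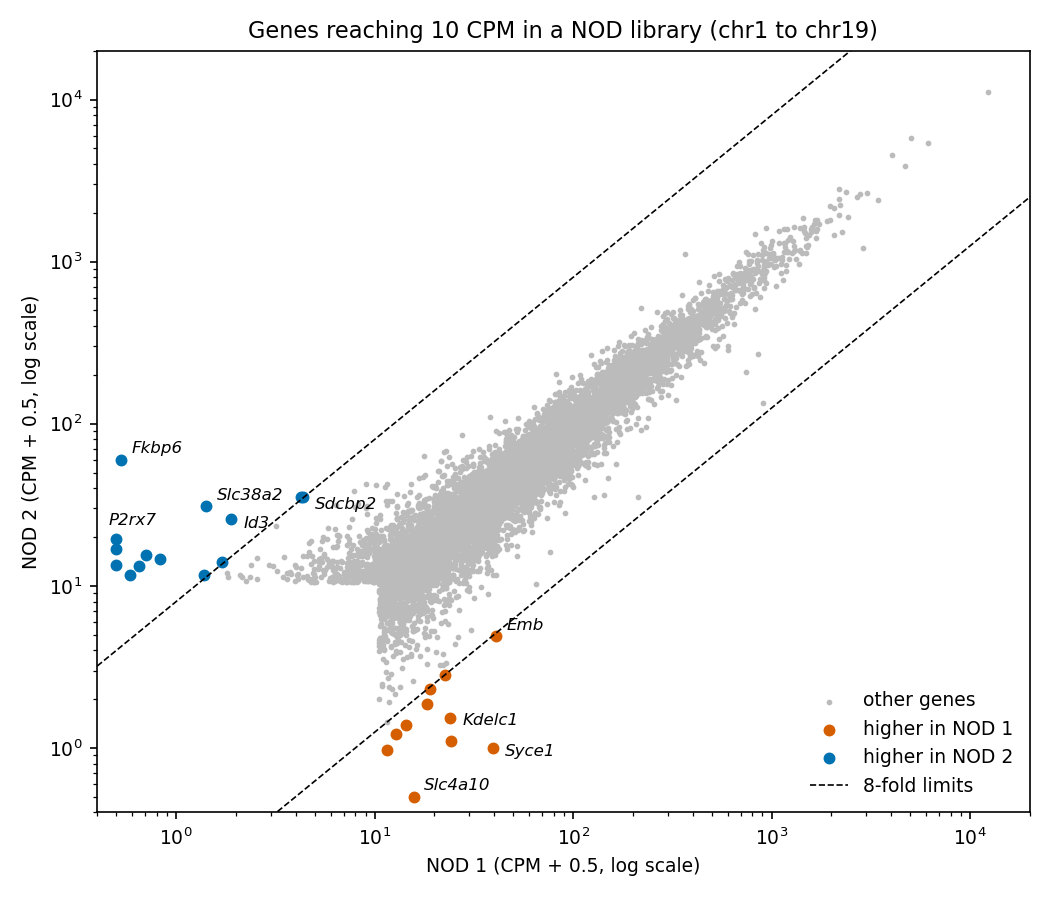
Level of each of the 8154 eligible genes in NOD 1 (x axis) and NOD 2 (y axis), as CPM + 0.5 on log scales, with the 11 selected genes higher in NOD 1 in orange and the 14 higher in NOD 2 in blue. The dashed lines mark 8-fold; the selected genes lie outside them, and none reached more than 4.40 CPM in its lower library.

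In its higher NOD library a selected gene had between 376 and 2153 counts, or 11.1 to 59.5 CPM with a median of 17.9 CPM, against a median of 52.8 CPM for the eligible genes. In its lower NOD library it had 0 to 4.40 CPM with a median of 0.719 CPM, and 4 genes (Slc4a10, P2rx7, Tcl1 and Chrnb4) had 0 counts. The limit cuts a continuous range. Just inside it lay Gm11544 (8.03-fold), Clec2f (8.21-fold) and Emb (8.32-fold) on the NOD 1 side and Sdcbp2 (8.18-fold), Hcfc2 (8.23-fold) and Rgcc (8.28-fold) on the NOD 2 side. Just outside it lay St8sia1 (7.97-fold), Fam171a1 (6.86-fold) and Cxcl14 (6.81-fold), higher in NOD 1, and 1700123I01Rik (7.32-fold), Nqo1 (6.70-fold) and Gfi1b (6.19-fold), higher in NOD 2.

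**Figure D2:**
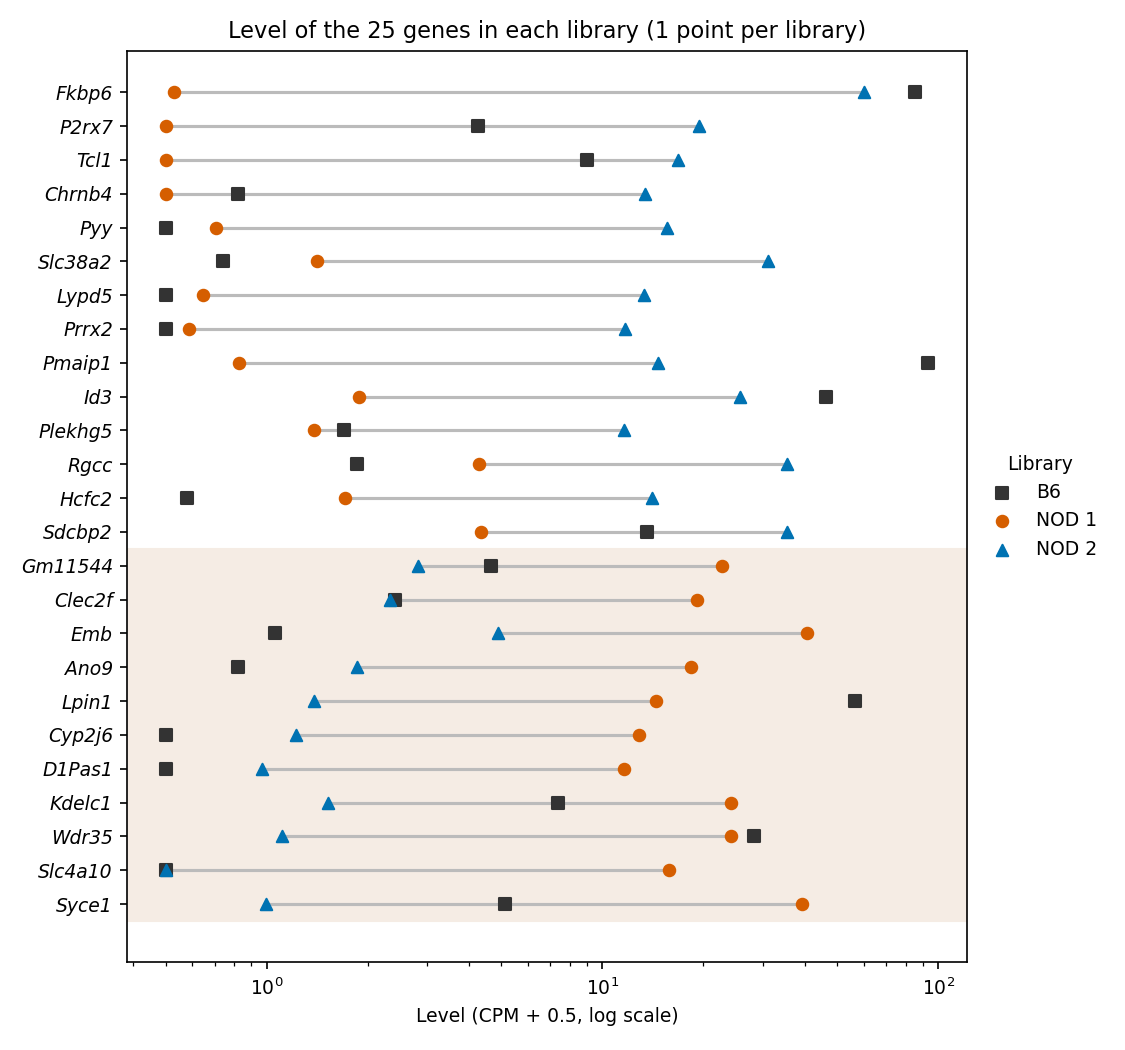
Level of the 25 genes (y axis) in B6 (squares), NOD 1 (circles) and NOD 2 (triangles), as CPM + 0.5 on a log scale (x axis), with 1 point per library, a grey line between the NOD libraries and the 11 genes higher in NOD 1 on the shaded ground. The B6 square lies beyond the higher NOD point for Fkbp6, Pmaip1, Id3, Lpin1 and Wdr35 and beyond the lower NOD point for 10 genes.

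The selected genes are grouped below by what they are known to do, a grouping made once they were known. On CPM + 0.5, a germ-line gene had the largest ratio in each direction, whereas in plain CPM the transporter gene Slc4a10 passed Syce1 on the NOD 1 side. Fkbp6, an immunophilin needed for meiosis and for piRNA production in the male germ line, had 1061 counts in B6 against 1 in NOD 1 and 2153 in NOD 2 (84.8, 0.03 and 59.5 CPM). NOD 1 was nearly empty, and the ratio of NOD 2 to NOD 1 was 2017 in CPM (95% interval 362 to 79717). NOD 2 stood 0.702 times as high as B6 (0.651 to 0.756). Syce1 encodes a central element protein of the synaptonemal complex, which joins homologous chromosomes in meiosis. It showed the opposite order, with 58 counts in B6 against 1316 in NOD 1 and 18 in NOD 2 (4.64, 38.8 and 0.50 CPM), a ratio of NOD 1 to NOD 2 of 78.0 (49.2 to 132). Here B6 stood between the NOD libraries, 9.32 times (5.41 to 16.8) above NOD 2 and 8.37 times (6.43 to 11.1) below NOD 1.

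Fkbp6 (chr5:135291704-135350044, minus strand, mm10) and Syce1 (chr7:140777229-140787854, minus strand, mm10) had the largest ratio of CPM + 0.5 in their direction, 113-fold and 39.4-fold. The 250 bases before their RefSeq start sites (GRCm38.p6) are printed to show the promoters of these 2 genes, with each CG dinucleotide in capitals. CG dinucleotides are where DNA methylation acts, and CpG-rich promoters of germ-line genes are known as a class that is silenced by it after implantation.
Fkbp6, chr5:135350045-135350294, minus strand: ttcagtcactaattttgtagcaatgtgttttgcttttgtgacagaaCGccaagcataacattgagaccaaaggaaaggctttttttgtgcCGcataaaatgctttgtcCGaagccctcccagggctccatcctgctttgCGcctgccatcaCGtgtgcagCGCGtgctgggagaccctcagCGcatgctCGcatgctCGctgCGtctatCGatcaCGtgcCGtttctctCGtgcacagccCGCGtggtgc
Syce1, chr7:140787855-140788104, minus strand: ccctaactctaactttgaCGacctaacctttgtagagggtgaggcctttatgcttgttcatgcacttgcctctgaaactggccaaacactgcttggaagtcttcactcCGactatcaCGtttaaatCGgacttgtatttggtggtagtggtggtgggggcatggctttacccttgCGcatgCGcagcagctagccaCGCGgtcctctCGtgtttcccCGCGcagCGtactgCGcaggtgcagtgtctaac
The Fkbp6 stretch holds 17 CG dinucleotides and the Syce1 stretch 13. No measure of methylation was analysed here.

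D1Pas1, an intronless autosomal relative of the RNA helicase genes Ddx3x and Ddx3y that is known from the testis, had 0 counts in B6 against 376 in NOD 1 and 17 in NOD 2 (0, 11.1 and 0.47 CPM). NOD 1 was higher than NOD 2 by 23.6 times (14.5 to 41.0) and than B6 by at least 46.2 times. Tcl1, a coactivator of the kinase AKT that oocytes, cleavage embryos and embryonic stem cells express, had 106 counts in B6 against 0 in NOD 1 and 588 in NOD 2 (8.48, 0 and 16.3 CPM). NOD 2 was at least 183.6 times above NOD 1 and 1.92 times (1.56 to 2.38) above B6, so that NOD 1 was the library that stood apart.

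Partners and relatives of the selected genes were listed from general knowledge once the selected genes were known, and their levels are a description, since 91.8% of all eligible genes lay within 2-fold between the NOD libraries. Syce2, which forms the central element with Syce1, had 47.1, 230 and 286 CPM in B6, NOD 1 and NOD 2, Sycp3 had 76.8, 170 and 320 CPM, and Tex12 had 2.72, 21.0 and 23.3 CPM. Of the synaptonemal genes listed, Sycp1 (14.0, 4.93 and 13.5 CPM) and Sycp2 (0.80, 10.6 and 3.82 CPM) passed 2-fold between the NOD libraries, in opposite directions. Of the piRNA genes, Mov10l1 (0, 30.8 and 30.0 CPM), Piwil2 (59.3, 46.8 and 49.0 CPM) and Asz1 (50.7, 94.5 and 131 CPM) lay within 2-fold between the NOD libraries, and Mael (5.04, 52.5 and 108 CPM) lay just beyond it. The germ-cell helicase Ddx4 (0.48, 27.7 and 26.0 CPM) was also level between the NOD libraries and low in B6. The Tcl1b genes next to Tcl1 were at 0.30 CPM or less in every library.

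Membrane transporters, channels and receptors made the second group. Slc4a10, a sodium-driven bicarbonate transporter best known from neurons, had 0 counts in B6 against 518 in NOD 1 and 0 in NOD 2 (15.3 CPM in NOD 1). This was the only one of the 25 genes with 0 counts in both other libraries, and NOD 1 was at least 184 times above NOD 2 and at least 63.7 times above B6. P2rx7, an ATP-gated cation channel known from macrophages, had 47 counts in B6 against 0 in NOD 1 and 683 in NOD 2 (3.76, 0 and 18.9 CPM). NOD 2 was at least 213 times above NOD 1 and 5.02 times (3.74 to 6.90) above B6. Chrnb4, the beta 4 subunit of nicotinic acetylcholine receptors, had 4, 0 and 466 counts (0.32, 0 and 12.9 CPM), and NOD 2 was at least 145.5 times above NOD 1.

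Slc4a10 (chr2:62046515-62326743, plus strand, mm10) and P2rx7 (chr5:122643911-122655260, plus strand, mm10) are shown with their promoters because they came next to Syce1 and Fkbp6 by the ratio of CPM + 0.5 in their direction. Neither promoter is CpG-rich. The same 250 bases before the RefSeq start are printed, CG dinucleotides in capitals, and the P2rx7 stretch reaches 16 bases into the listed transcript.
Slc4a10, chr2:62046265-62046514, plus strand: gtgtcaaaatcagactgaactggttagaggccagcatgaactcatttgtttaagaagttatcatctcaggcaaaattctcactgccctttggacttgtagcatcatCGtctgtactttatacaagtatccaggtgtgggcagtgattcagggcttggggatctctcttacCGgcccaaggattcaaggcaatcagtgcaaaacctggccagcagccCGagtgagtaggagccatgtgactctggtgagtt
P2rx7, chr5:122643677-122643926, plus strand: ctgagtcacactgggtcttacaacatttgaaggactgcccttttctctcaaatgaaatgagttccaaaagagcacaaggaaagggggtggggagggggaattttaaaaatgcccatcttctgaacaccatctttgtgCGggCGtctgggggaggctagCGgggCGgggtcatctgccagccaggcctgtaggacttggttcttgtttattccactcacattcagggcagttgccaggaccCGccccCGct
The Slc4a10 stretch holds 3 CG dinucleotides and the P2rx7 stretch 6. For P2rx7 the counted transcript was 802 bases long and spanned 11.3 kb of the 48.4 kb that RefSeq gives the gene, so that reads on exons outside it were not counted.

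Slc38a2 transports small neutral amino acids and is known to be induced when amino acids are scarce. It had 3 counts in B6 against 31 in NOD 1 and 1109 in NOD 2 (0.24, 0.91 and 30.7 CPM), with NOD 2 above NOD 1 by 33.5 times (23.5 to 49.6). Its neighbours and relatives on chr15 were high in every library. Slc38a1 had 56.1, 68.4 and 83.5 CPM and Slc38a4 had 120, 293 and 341 CPM in B6, NOD 1 and NOD 2. Of the 14 eligible genes of the ATF4 response to amino acid stress, 0 were selected (0.307% of all eligible genes) and 3 differed by 2-fold or more (669 of all 8154), and the median log2 ratio of NOD 2 to NOD 1 was 0.33 against -0.07 for all eligible genes. The list did not move one way. Sesn2 (17.9, 2.42 and 13.0 CPM in B6, NOD 1 and NOD 2), Nupr1 (0, 7.49 and 30.1 CPM) and Cth (36.6, 44.7 and 103 CPM) were higher in NOD 2. The transcription factor gene Atf4 went from 134 CPM in NOD 1 to 94.9 CPM in NOD 2, the asparagine synthetase gene Asns from 104 to 80.3 CPM and Ddit3 from 36.8 to 27.0 CPM.

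Emb encodes embigin, a partner of monocarboxylate transporters at the cell surface. It had 7 counts in B6 against 1363 in NOD 1 and 159 in NOD 2 (0.56, 40.2 and 4.40 CPM), so that both NOD libraries stood above B6. Its relative Bsg (665, 1581 and 1583 CPM) and their transporter Slc16a1 (84.4, 138 and 132 CPM) were level between the NOD libraries. Ano9, of the anoctamin family of channels and scramblases, had 4, 606 and 49 counts (0.32, 17.9 and 1.35 CPM), while Ano6 and Ano10 differed by 1.21-fold and 1.26-fold. Lypd5, a Ly6-type surface protein, had 0, 5 and 463 counts (0, 0.15 and 12.8 CPM), and Pyy, a gut peptide hormone, had 0, 7 and 546 counts (0, 0.21 and 15.1 CPM). Clec2f, a C-type lectin-like gene of the natural killer gene complex, had 24, 630 and 66 counts (1.92, 18.6 and 1.82 CPM), and B6 over NOD 2 was 1.05 (0.630 to 1.70). The related lectin gene Clec2i had counts in NOD 1 alone (0, 2.66 and 0 CPM), below the level required. Of the predicted genes, Gm11544 was selected (52, 751 and 84 counts or 4.16, 22.2 and 2.32 CPM).

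Enzymes and a ciliary gene made the third group, in which the common direction, higher in NOD 1, says nothing of the functions because the group was drawn up with the values known. Lpin1, a phosphatidate phosphatase of lipid synthesis, had 700 counts in B6 against 472 in NOD 1 and 32 in NOD 2 (56.0, 13.9 and 0.88 CPM). Wdr35, a subunit of the intraflagellar transport complex that carries cargo back along cilia, had 348, 804 and 22 counts (27.8, 23.7 and 0.61 CPM). For both genes NOD 2 was the low library and B6 stood above NOD 1. Of the other subunits, Ift43 was level between the NOD libraries (30.5, 43.6 and 42.2 CPM). Ift140 had the same order as Wdr35, with 21.0, 5.34 and 1.94 CPM, and Ift122 had 1.28, 2.33 and 1.08 CPM, both under 10 CPM in NOD, while Wdr19 and Ttc21b stayed below 1 CPM. Kdelc1, whose current symbol is Poglut2 and which adds glucose to proteins in the endoplasmic reticulum, had 86, 800 and 37 counts (6.88, 23.6 and 1.02 CPM). Cyp2j6, a cytochrome P450 of fatty acid oxidation, had 0, 418 and 26 counts (0, 12.3 and 0.72 CPM).

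The remaining 7 genes act in transcription, signalling, scaffolding or cell death, and as they were put together with their values known, nothing is read from their common direction, higher in NOD 2. Pmaip1 encodes NOXA, a BH3-only inducer of apoptosis and target of p53. It had 1164 counts in B6 against 11 in NOD 1 and 512 in NOD 2 (93.1, 0.32 and 14.2 CPM), so that NOD 2 exceeded NOD 1 by 43.6 times (24.2 to 87.9) and stood 0.152 times as high as B6 (0.137 to 0.169). Other p53 targets did not follow this order: Cdkn1a had 424, 105 and 62.5 CPM, Mdm2 had 247, 93.8 and 77.2 CPM and Bbc3, which encodes the BH3-only protein PUMA, had 64.4, 2.21 and 0.58 CPM. These 3 were highest in B6, as was Pmaip1, but were lower in NOD 2 than in NOD 1.

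Id3, an inhibitor of basic helix-loop-helix factors and a known target of BMP signalling, had 573 counts in B6 against 47 in NOD 1 and 914 in NOD 2 (45.8, 1.39 and 25.3 CPM). NOD 2 exceeded NOD 1 by 18.2 times (13.6 to 25.0). Id2 (340, 561 and 402 CPM) and Smad7 (66.7, 28.4 and 16.5 CPM) leaned the other way between the NOD libraries, and Id1 and Id4 stayed below 2 CPM. Prrx2, a homeobox gene of embryonic mesenchyme, had 0, 3 and 405 counts (0, 0.09 and 11.2 CPM), and its relative Prrx1 had 0 counts in every library. Hcfc2, a relative of the transcriptional coregulator Hcfc1, had 1, 41 and 491 counts (0.08, 1.21 and 13.6 CPM), while Hcfc1 had 202, 133 and 114 CPM. Rgcc, a regulator of the cell cycle, had 17, 128 and 1263 counts (1.36, 3.78 and 34.9 CPM). Plekhg5 had 15, 30 and 401 counts (1.20, 0.89 and 11.1 CPM), and Sdcbp2, the scaffold protein syntenin-2, had 163, 130 and 1265 counts (13.0, 3.84 and 35.0 CPM).

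Per kilobase of transcript, the scale on which genes can be compared, Fkbp6 was the most abundant of the 25 in its higher NOD library (41.5 CPM per kb), followed by Rgcc (38.5), Pyy (30.6) and Clec2f (28.6), and Lpin1 was the least abundant (2.55). In B6 the order was led by Fkbp6 (59.1 CPM per kb), Id3 (48.3) and Pmaip1 (35.1).

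Read across the 25 genes, B6 was close to no single NOD library. On log2(CPM + 0.5), B6 lay nearer the higher NOD library for 9 genes, of which 3 were higher in NOD 1 (Wdr35, Lpin1 and Kdelc1) and 6 higher in NOD 2 (Fkbp6, Tcl1, P2rx7, Id3, Pmaip1 and Sdcbp2). It lay nearer the lower library for 16. Within 2-fold of B6 were 4 genes in their higher library and 10 in their lower one. The placement of B6 is bounded by the selection, because a level cannot be close to both NOD libraries at once. B6 stood between the NOD libraries for 10 of the 25 genes (5 in each direction, with the tie at Slc4a10 counted as between) and for 10.7% of eligible genes, whose NOD libraries lie closer together.

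The B6 levels are given beside those of the eligible genes as a description. The 25 genes reached 10 CPM through 1 NOD library alone, so that low levels in other libraries follow from the selection. In B6, 6 of the 25 had 0 counts (24%: Slc4a10, D1Pas1, Cyp2j6, Prrx2, Lypd5 and Pyy), against 0.662% of the eligible genes and 1.09% of the 4393 eligible genes that did not exceed 59.5 CPM in their higher NOD library. At 10 CPM or more in B6 stood 6 of the 25 (24%: Fkbp6, Pmaip1, Lpin1, Id3, Wdr35 and Sdcbp2), against 87.8% and 79.1%. The median B6 level was 1.36 CPM for the 25 genes and 28.1 CPM for the genes up to 59.5 CPM, but the 25 lay lower in that range, with 15 of them at 10 to 20 CPM against 1642 of the 4393. The B6 library has the fewest counts, and its limit for 0 counts, 0.240 CPM, lay far below these levels.

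Under the same 8-fold rule, B6 and NOD 1 differed at 663 of 9038 genes (7.34%). B6 and NOD 2 differed at 798 of 9023 genes (8.84%), 9 of the 25 among them. By the 8-fold ratio alone, without the 10 CPM limit, 10 of the 25 differed between B6 and NOD 1. Of these, Tcl1 (8.48 CPM in B6 and 0 in NOD 1) and P2rx7 (3.76 and 0 CPM) were under 10 CPM in both libraries. They are therefore not among the 663. By the ratio alone, no gene of the 25 passed for both NOD libraries, and 6 passed for neither (Syce1, Kdelc1, Clec2f, Gm11544, Sdcbp2 and Plekhg5). Since the selection places each gene far from B6 in at least 1 NOD library, nothing is read from these counts.

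For the strain comparison of NOD with B6, edgeR's quasi-likelihood test called 2552 of 14456 genes (17.7%) with an adjusted p below 0.05 and a change of 2-fold or more, 1483 up-regulated and 1069 down-regulated in NOD blastocysts. All 25 genes were tested and 0 were called. At an unadjusted p under 0.05 stood 4 of the 25 (D1Pas1, Cyp2j6, Emb and Hcfc2) against 39.9% of all genes tested, and the smallest adjusted p was 0.0903 (Emb, edgeR). DESeq2 called 12 of the 25, with Lpin1 down-regulated and 11 genes up-regulated in NOD, against 29.1% of all genes tested. limma-voom called 0 of the 14456 genes, so that its count says nothing of the 25, and it had 2 of the 25 at an unadjusted p under 0.05 against 27.1% of all genes. The spread between the NOD libraries, on which the genes were selected, enters these tests. Estimated gene by gene in edgeR, the median biological coefficient of variation was 0.775 for the 25 genes and 0.370 for all genes tested. These gene-wise values describe the spread and were not the dispersion given to the edgeR fit. That fit used a trend over all genes tested, with a median of 0.374. With 1 B6 library and with no word on separate litters or cultures, the p-values measure the spread between these samples, which may be technical.

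Lineage genes were compared through lists of markers. With 0.307% of all eligible genes selected, counts of 0 on lists of this size are no result about the lineages, and the levels are given as a description. Of the naive pluripotency list, 0 of 28 eligible genes were selected, and the median log2 ratio of NOD 2 to NOD 1 was 0.25. Prdm14, which protects naive pluripotency, was the farthest (0.08, 1.65 and 10.9 CPM in B6, NOD 1 and NOD 2). Nanog had 129, 212 and 317 CPM and Pou5f1 had 119, 143 and 170 CPM. Of the primitive endoderm list, 0 of 14 were selected (median 0.03), and Lamc1, a laminin chain of the basement membrane, was the farthest (66.0, 90.5 and 27.5 CPM). Of the trophectoderm list, 0 of 30 were selected (median -0.14), with Gata3 farthest (510, 329 and 139 CPM), Cdx2 at 91.7, 65.2 and 50.6 CPM and Krt8 at 608, 316 and 299 CPM. The summed levels were 7420, 10663 and 12363 CPM for naive pluripotency, 2888, 2085 and 1888 CPM for primitive endoderm and 7038, 7779 and 6533 CPM for trophectoderm, so that markers of the trophectoderm were present in all 3 libraries.

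Every eligible gene on the ribosomal protein and oxidative phosphorylation lists stayed within 2-fold between the NOD libraries. Among 66 genes of cytosolic ribosomal proteins the log2 ratio ran from -0.65 to 0.83, and among 72 genes of oxidative phosphorylation from -0.43 to 0.87. Of 53 cell cycle genes, 0 were selected, and Ccnd1, cyclin D1, was the farthest (99.4, 8.50 and 42.2 CPM). The selected genes that stood on a list of functions were Tcl1 (1 of 10 oocyte and maternal genes), Pmaip1 (1 of 21 p53 and apoptosis genes), Slc4a10 and Slc38a2 (2 of 144 solute carriers) and Gm11544 (1 of 291 predicted and RIKEN genes), beside 0.307% of all eligible genes. Interferon-stimulated genes (0 of 7), MHC genes (0 of 17), imprinted genes (0 of 14), numbered zinc finger genes (0 of 160) and cholesterol genes (0 of 19) held none of the 25, and neither did the other lists given in the methods, which at the share of 0.307% is no result about these functions.

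**Figure D3:**
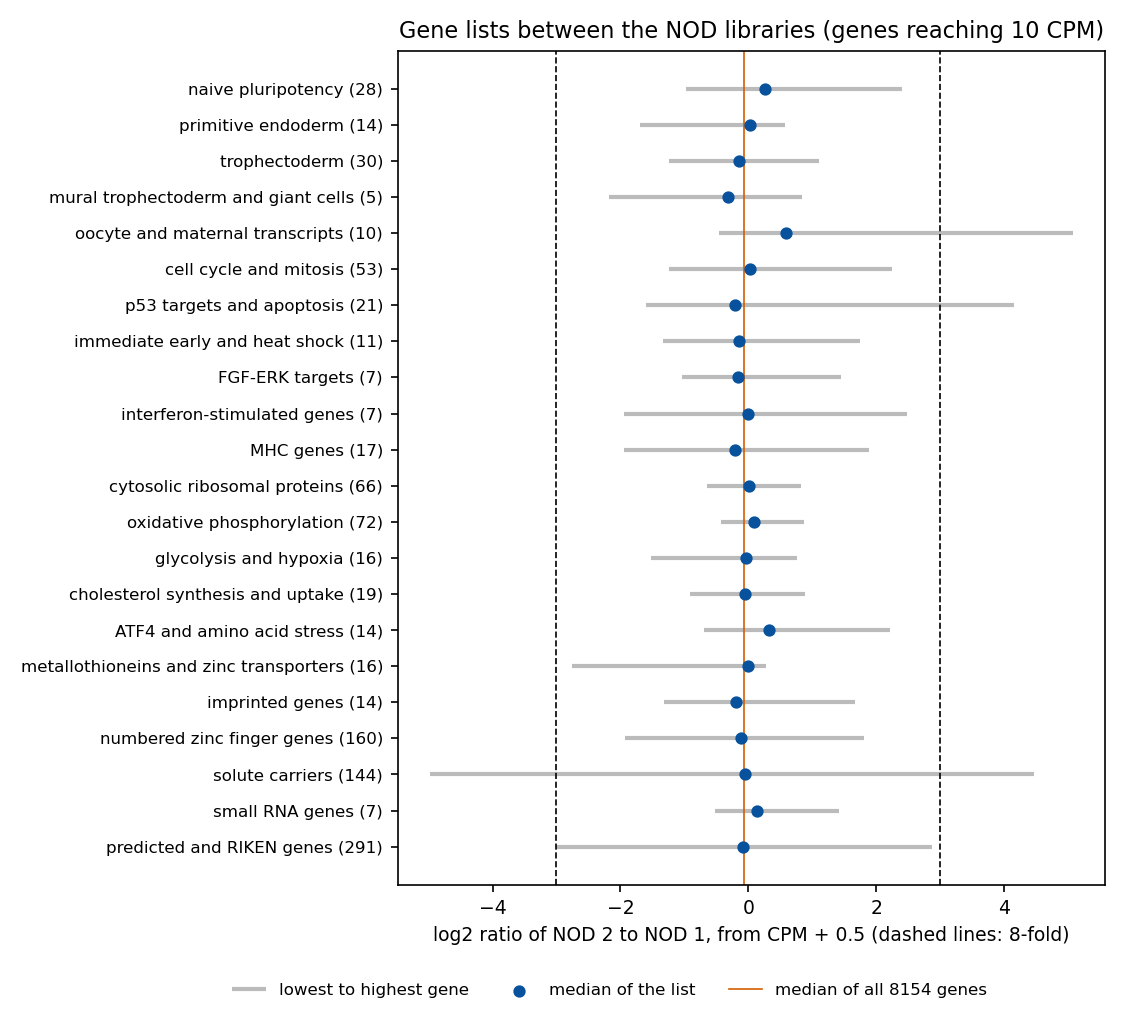
Log2 ratio of NOD 2 to NOD 1 (x axis, from CPM + 0.5) for gene lists with at least 5 eligible genes (y axis, number of eligible genes in brackets), with the median as a point and the lowest to the highest gene as a bar. The list medians lie between -0.32 and 0.59, and the bars that pass 8-fold (dashed lines) do so through Tcl1, Pmaip1, Slc4a10, Slc38a2 and Gm11544.

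Markers of cells that could be carried over were few. Of 14 cumulus and granulosa genes, 8 had 0 counts in every library and their summed level was 6.88, 9.12 and 2.88 CPM in B6, NOD 1 and NOD 2. Of 16 leukocyte genes, 7 had 0 counts in every library, Ptprc and Lyz2 among them, and Laptm5 made up 21.2 of 22.7 CPM in NOD 1 and 21.3 of 24.6 CPM in NOD 2. The erythroid genes summed to 1.76, 1.65 and 1.85 CPM and the stromal genes to 6.32, 4.72 and 6.77 CPM. The oviduct and uterine genes summed to 73.6, 175 and 216 CPM, nearly all of it Wfdc2 (71.6, 167 and 211 CPM). None of these lists held a selected gene.

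Sex-linked transcripts, which the selection left out, separated the NOD libraries. Xist, the RNA that coats the inactive X chromosome, had 21.7 CPM in B6 against 1.98 in NOD 1 and 111 in NOD 2. The Y-linked gene Ddx3y had 118, 110 and 0 CPM, Eif2s3y had 69.7, 92.1 and 0 CPM, and Uty had 9.28, 16.8 and 0 CPM. On chrX 9 of 287 genes that reached 10 CPM differed 8-fold, all 9 higher in NOD 2, and the median log2 ratio over these 287 genes was 0.48. With 1 library of each kind, the embryos' sex and any other difference between NOD 1 and NOD 2 cannot be told apart for the 25 genes. Ddx3y was also the only listed relative or partner past 8-fold.

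The share of genes past 8-fold fell with the level. Among genes whose higher NOD library stood at 10 to 20 CPM, 15 of 1642 were selected (0.914%), at 20 to 40 CPM 8 of 1766 (0.453%) and at 40 to 80 CPM 2 of 1688 (0.118%). From 80 CPM on there was none, and the widest gaps were those of the metallothioneins Mt1 (6.77-fold) and Mt2 (6.01-fold), both higher in NOD 1. The SD of the log2 ratio fell in the same order, from 0.86 at 10 to 20 CPM to 0.34 at 320 CPM and over. For the 21 genes with counts in both NOD libraries, the lower end of the exact interval of the ratio in plain CPM was 7.61 or higher, which bears on counting error alone.

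**Figure D4:**
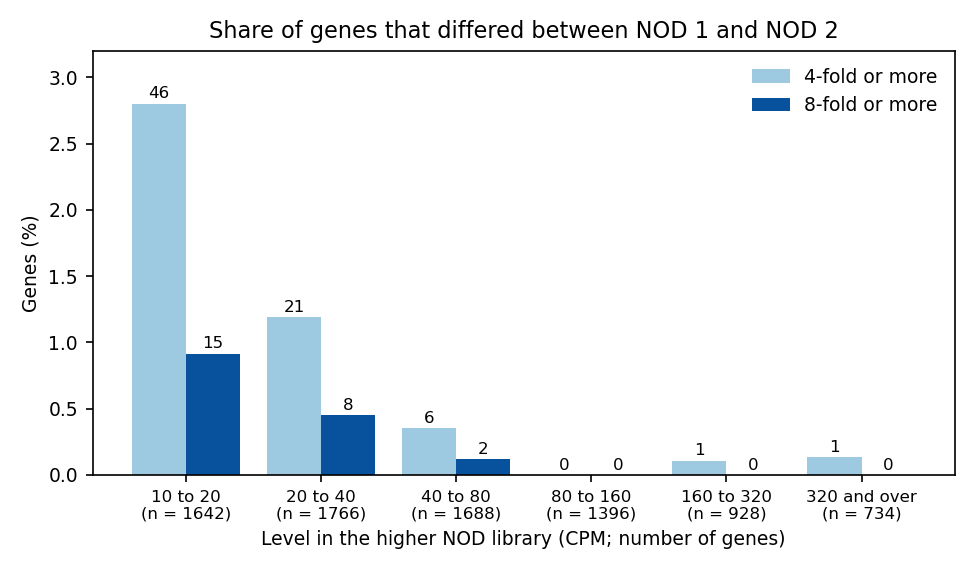
Share of eligible genes (y axis, %) that differed at least 4-fold (light bars) or 8-fold (dark bars) between NOD 1 and NOD 2, by the level in the higher NOD library in CPM (x axis, number of genes in brackets), with the number of genes over each bar. The 8-fold share is 0.914% at 10 to 20 CPM, 0.118% at 40 to 80 CPM and 0 above.

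The nearest eligible gene on each side of a selected gene was compared, 50 neighbours in all at a median distance of 85.0 kb. Of these, 46 lay within 2-fold between the NOD libraries and 0 past 8-fold, against 91.8% and 0.307% of all eligible genes, with log2 ratios from -1.59 (Vwa8, beside Rgcc) to 1.52 (Tcea3, beside Id3). Sigirr lies 0.673 kb from Ano9 and had 13.3 CPM in NOD 1 and 19.9 in NOD 2, Dpp4 lies 3.33 kb from Slc4a10 and had 42.2 and 48.6 CPM, and Chrna3, the receptor subunit gene 1.60 kb from Chrnb4, had 339 and 408 counts. The 25 genes lay on 14 chromosomes, and the closest pair, Syce1 and Ano9, was 313 kb apart.

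Of the 102 relatives and partners, 43 reached 10 CPM in a NOD library. Within 2-fold lay 39 of them, against 91.8% of all eligible genes, and the 4 beyond were Sycp1, Sycp2, Mael and Ddx3y. The median log2 ratio of the 43 was -0.04. In 36 of the 102 the level was below 1 CPM in every library, among them 6 Cyp2j genes with 0 counts throughout.

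Features of the genes themselves were compared with those of the eligible genes as a description. All 25 were protein-coding, as were 98.2% of eligible genes, and 0 overlapped the span of another gene, against 20.8%. Reads were counted without regard to strand, so that antisense reads inside a gene cannot be told from its own. The counted transcripts had a median length of 2312 bases (494 to 5460). Of the 50-base words of the transcripts, 22.2% of those of Emb, 18.9% of those of Gm11544, 12.6% of those of Kdelc1 and 4.39% of those of D1Pas1 occur in another gene in GENCODE M21, so that these counts are uncertain by the reads they may share; for the other 21 genes the share was at most 1.46%.

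Promoters could be matched for 19 of the 25 genes, as RefSeq start sites within 100 bases of the listed start, and for 5876 eligible genes. Over 250 bases before and 50 after the start, 9 of the 19 (47.4%) were CpG-rich, that is with an observed to expected CpG ratio above 0.6 and a GC content above 50%, against 78.5% of the eligible promoters. The median number of CG dinucleotides was 14 against 23. The 9 were those of Fkbp6, Syce1, D1Pas1, Wdr35, Id3, Plekhg5, Prrx2, Rgcc and Slc38a2. The E-box CACGTG occurred in 4 of the 19 (Fkbp6, Cyp2j6, Hcfc2 and Lypd5; 21.1%) against 11.0%, and the TATA motif TATAAA, sought on both strands, in 1 (Slc4a10; 5.26%) against 5.99%. CACGTG reads the same on both strands and the motifs share no overlap. The letters are a description of these windows and name no factor or site.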

How the data were processed

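The authors aligned the reads to mm10 with STAR. Its version is 2.2.0c in the submitters' processing notes, whereas the study's methods for low-input libraries name a later one. The authors then used HOMER to count exonic reads of either strand, keeping 1 RefSeq transcript for each gene. What they deposited are the raw counts, not normalized, and the table also gives the length in bases of the transcript counted. The treatment of reads with several alignments is not given in the sources used here. The counting command also names a morula and a positive control library, not used here.

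CPM is the count divided by the library's sum, times 1e+06. The genes were selected by the ratio of CPM + 0.5 between NOD 1 and NOD 2 at 8-fold, with at least 10 CPM in one NOD library. This selection, the gene lists and the alternatives were chosen with earlier results of these data known, and relatives and partners once the selected genes were known. Samples were grouped by the strain in the labels. Genes named in the text were to be those on a gene list, those with the highest levels or the largest ratios in each direction, and those next to the limit, and in the end each of the 25 is named. Names outside that rule (neighbours, relatives and the farthest gene of a list) were picked after their values were seen.

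The lists covered naive pluripotency, primitive endoderm, trophectoderm, mural trophectoderm and giant cells, two-cell-stage genes, maternal transcripts, markers of cumulus, oviduct, leukocyte, erythroid and stromal cells, cell cycle, p53, immediate early, FGF-ERK, interferon, MHC, ribosomal protein, histone, oxidative phosphorylation, glycolysis, cholesterol, ATF4, metallothionein and zinc transport, imprinted, zinc finger, solute carrier, small RNA and predicted genes.

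NOD was compared with B6 by edgeR 4.0.16 (quasi-likelihood test, filterByExpr, TMM, Benjamini-Hochberg adjustment over 14456 genes), with DESeq2 1.42.0 and limma 3.58.1 as alternatives, in R 4.3.3, and the test was tried on simulated counts. Other steps used Python 3.11.15, pandas 2.3.3 and scipy 1.17.1. Sequences are from RefSeq (GRCm38.p6), and transcripts for shared words from GENCODE M21.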

Additional observations from a re-analysis of the deposited data

How the results depend on the processing

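Scaling the libraries by TMM factors gave 25 genes, 24 of them shared, and by DESeq2 size factors 24 genes, 23 of them shared, with Gm11544 lost under both and Clec2f under the latter. With a pseudocount of 0.1 CPM 28 genes were selected, 25 of them shared, and leaving out transcripts under 300 bases or overlapping genes removed none. Counts of genes selected, higher in NOD 1, higher in NOD 2 and with B6 nearer the higher NOD library (25, 11, 14 and 9) became 10, 5, 5 and 5 at a minimum of 20 CPM, 62, 28, 34 and 22 at 5 CPM, 75, 44, 31 and 35 at a 4-fold limit and 12, 3, 9 and 5 at a 16-fold limit. A pseudocount of 1 CPM left 16 genes, 6 of them higher in NOD 1. These shifts follow from stricter or looser limits.

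For NOD against B6, edgeR called 2552 genes, 2677 with DESeq2 size factors and 2169 with total counts. DESeq2 called 4210 genes and 12 of the 25. edgeR without a filter on low counts called 0 genes (5568 at an unadjusted p under 0.05) and limma-voom 0 (3924), and 0 of the 25 were called in either. The cause was not tested. The median log2 difference of the 25 genes, NOD minus B6, was 1.46, and between 0.50 and 1.18 when either NOD library was left out, on log2(CPM + 0.5). Leaving out a NOD library leaves 1 sample against 1, with no test. No paired analysis was possible because B6 has 1 library. The depth of B6 limits what can be said of genes under 0.240 CPM there, and 1 library for B6 gives no spread.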
